A study of Mus musculus with 15 samples.

Results

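Bile acid synthesis, sensing and uptake were followed through 10 genes of the liver of mice on 5 diets. They were chosen by their known roles: the enzymes Cyp7a1, Cyp8b1, Cyp27a1, Cyp7b1, Hsd3b7, Akr1d1 and Baat, the receptors Nr1h4 and Nr0b2 and the carrier Slc10a1. They carried 17 of the 45037 probe sets on the array that are not controls, a probe set being a group of short probes against 1 transcript, and made up 10 of the 18193 genes that a single gene symbol identified. All 10 had at least 1 probe set of their own, and genes were not filtered by level before the main tests.

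Total RNA of liver was hybridised to Affymetrix Mouse Genome 430 2.0 arrays, and each array held the RNA of a single mouse. The 15 mice were males of the strain C57BL/6J (C57BL/6 in the strain label), 3 in each of 5 groups. The mice were 7 weeks old when the diets began and were fed for 9 weeks with free access to food and water. Fat supplied 10% of the energy of the normal diet given to ND, and 60% of that of the high-fat diet given to HF. The other groups all ate that high-fat diet with 2% of freeze-dried coffee. It was caffeinated in HFCC, decaffeinated in HFDC, and green, that is unroasted, and also caffeinated in HFGC. No group ate coffee with the normal diet, so coffee could be compared on the high-fat background alone. The 3 mice of a group were a random selection from a larger group, and each was a separate animal.

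Bile acids are made from cholesterol in hepatocytes, the main cells of the liver. In the classic route Cyp7a1 hydroxylates the sterol ring, the rate-limiting step, and Cyp8b1 adds the further hydroxyl group that makes cholic acid. In the alternative route Cyp27a1 oxidises the side chain and Cyp7b1 hydroxylates the resulting oxysterols. Bile acids bind FXR (Nr1h4), which induces SHP (Nr0b2), a repressor of Cyp7a1 and Cyp8b1, and NTCP (Slc10a1) returns bile acids from the blood to the hepatocyte. In whole liver, fewer cells of a type and less RNA per cell cannot be told apart.

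The values below are log2 intensities of the probe set with the highest mean for each gene, so a difference of 1 is a doubling, and because probe sets differ in how well they bind, levels are compared between arrays and not between genes. Differences were tested with limma across all 18193 genes, and a gene was called where its Benjamini-Hochberg adjusted p, over the whole table, was under 0.05. Hepatocyte markers were present on every array: the 7 markers measured of 8, among them albumin (Alb), Apoa1 and transthyretin (Ttr), had summed intensities of 117466 to 122568 in HF and of 119787 to 129422 in ND, and limma called none of the 7 in any comparison, with 0 to 2 at an unadjusted p under 0.05. RNA quality was not even across groups. The log2 difference between 3′ and 5′ control probe sets of Gapdh and Actb, which grows as RNA degrades, was 0.83 to 0.95 in ND, 1.08 to 1.40 in HF, 0.84 to 1.07 in HFCC, 0.86 to 1.06 in HFDC and 0.70 to 0.89 in HFGC. All 3 HF arrays lay above all other arrays, and HF replicate 2 was the highest.

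On the high-fat diet alone, 3 of the 10 bile acid genes were called against the normal diet, where 13.5% of all genes were called. Akr1d1 and Hsd3b7, which act on the ring in both routes, rose, and Cyp7b1 of the alternative route fell. The other 7 were not called, and 5 of the 10 had an unadjusted p under 0.05. The median difference over the 10 genes was 0.09, against 0.00 over all genes, with a range from -0.64 to 0.78. Cyp7a1, the rate-limiting enzyme, was not among the called genes, with a difference of -0.59 ± 0.39 (SE, limma adjusted p = 0.345).

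**Figure D1:**
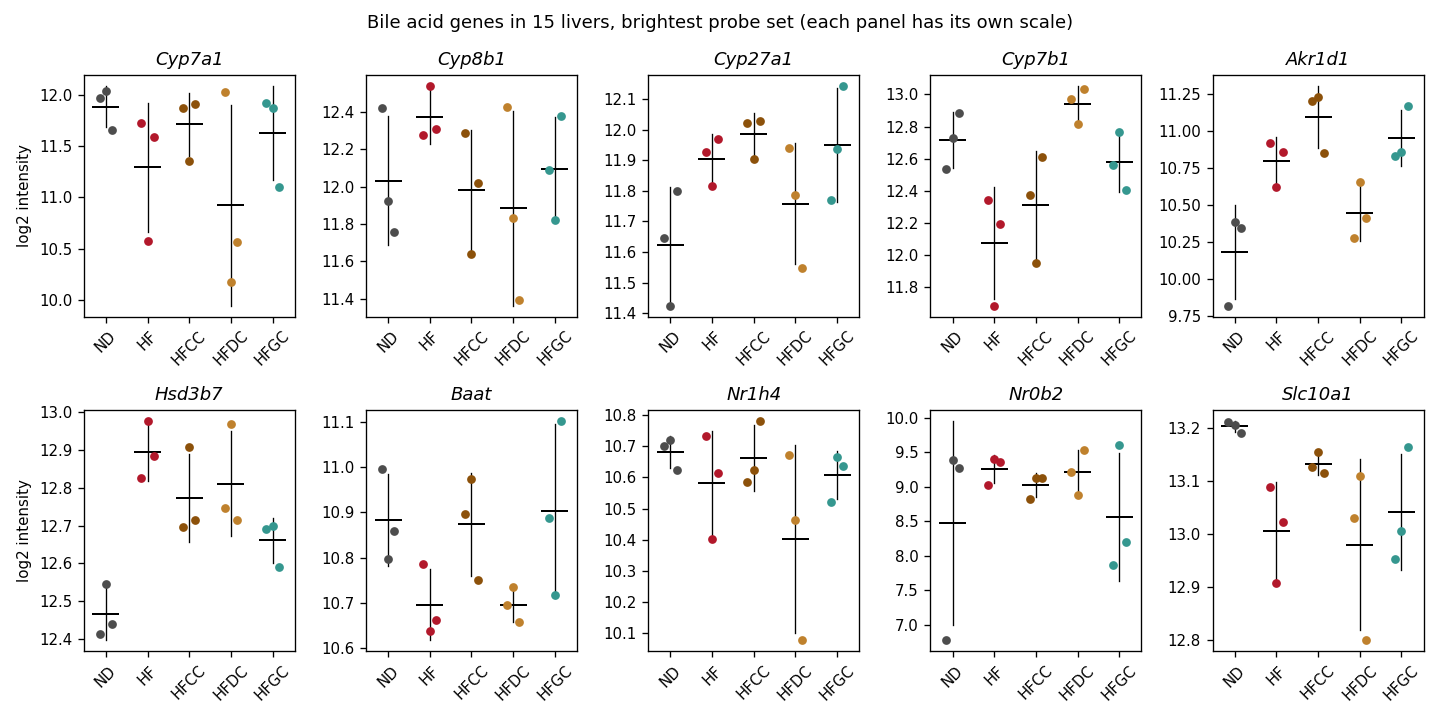
Log2 intensity of the brightest probe set of each of the 10 bile acid genes (vertical axes, each panel on its own scale) in the 5 diet groups; points are single mice, horizontal lines group means and vertical lines 1 SD, n = 3. The 3 HF mice sit above the 3 ND mice for Akr1d1 and Hsd3b7 and below them for Cyp7b1, while Cyp7a1 and Nr0b2 vary more within groups than the other genes.

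Hsd3b7 encodes the steroid dehydrogenase that oxidises the ring after its hydroxylation. Its log2 intensity was 12.41, 12.55 and 12.44 in the ND mice and 12.83, 12.98 and 12.89 in the HF mice. The groups did not overlap, and the spread between mice was small, with an SD of 0.07 in ND and 0.08 in HF. The rise was 0.43 ± 0.08 (SE) on the log2 scale, or 1.35-fold, with a 95% interval of 0.25 to 0.61 (limma adjusted p = 0.00582). It was called without each array in turn. The means of the coffee groups lay between those of HF and ND. Single values were 12.70, 12.91 and 12.72 in HFCC, 12.75, 12.97 and 12.72 in HFDC and 12.69, 12.70 and 12.59 in HFGC, and each of these 9 values was above the highest ND value. The 3 HFGC values all lay below the lowest HF value, a difference of -0.24 ± 0.08 that was not called (limma adjusted p = 0.120).

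Akr1d1, the steroid reductase that gives bile acids their bent ring, had values of 9.82, 10.38 and 10.34 in ND and of 10.92, 10.62 and 10.85 in HF. Every HF mouse was above every ND mouse. The rise was 0.62 ± 0.16 (SE), or 1.53-fold, with a 95% interval of 0.28 to 0.95 (limma adjusted p = 0.0186). It was not called without ND replicate 1, the lowest array, where the rise was 0.43 (adjusted p = 0.0655), nor without HF replicate 3, where it was 0.59 (adjusted p = 0.0666).

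RefSeq promoter windows of GRCm38.p6, from 250 bases before to 50 after a transcript start, were at hand for 7 of the 10 genes, and those of Akr1d1 and Hsd3b7, the members that rose together, are shown with that of Nr0b2, the member that varied most between mice. Capitals mark matches on either strand to AGGTCA, the hexamer that many nuclear receptors read, and to the E-box CACGTG.
Akr1d1: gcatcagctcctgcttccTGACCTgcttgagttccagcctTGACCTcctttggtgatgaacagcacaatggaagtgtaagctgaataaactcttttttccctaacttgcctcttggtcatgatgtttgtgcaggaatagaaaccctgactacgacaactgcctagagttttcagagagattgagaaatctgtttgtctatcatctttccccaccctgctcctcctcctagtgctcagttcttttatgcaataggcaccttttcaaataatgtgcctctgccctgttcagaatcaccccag
Hsd3b7: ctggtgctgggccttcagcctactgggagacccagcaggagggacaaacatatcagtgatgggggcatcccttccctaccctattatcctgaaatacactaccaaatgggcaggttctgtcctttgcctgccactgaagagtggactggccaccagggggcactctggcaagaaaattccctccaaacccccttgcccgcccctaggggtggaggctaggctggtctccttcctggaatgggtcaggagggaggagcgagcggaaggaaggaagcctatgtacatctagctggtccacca
Nr0b2: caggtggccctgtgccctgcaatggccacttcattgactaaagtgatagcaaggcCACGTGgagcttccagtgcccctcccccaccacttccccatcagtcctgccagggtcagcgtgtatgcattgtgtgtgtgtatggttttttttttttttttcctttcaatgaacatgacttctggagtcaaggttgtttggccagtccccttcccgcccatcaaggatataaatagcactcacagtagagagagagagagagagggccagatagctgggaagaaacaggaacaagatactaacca
The Akr1d1 window (chr6:37529923-37530222, plus strand) held 2 matches to AGGTCA, both on the minus strand, 232 and 210 bases before the transcript start of the window. The gene record of Akr1d1 begins at 37529978, inside this window. The window of Nr1h4 and 1 window of Slc10a1 also held 1 match each, and neither gene was called on its brightest probe set. The Hsd3b7 window (chr7:127800359-127800658, plus strand) held no match to a motif searched. The Nr0b2 window (chr4:133553126-133553425, plus strand) held 1 E-box, which reads the same on both strands, 195 bases before the start. Of 32851 mouse windows of this length, 16.3% held AGGTCA and 7.15% held CACGTG. The longer CAAGGTCA, which contains AGGTCA and is the site of LRH-1, was in 1.56% of windows and the D-box TTATGTAA in 0.938%. The FXR element IR1 was searched as 2 exact copies of AGGTCA facing each other 1 base apart, and was in 0.00913%. The DR1 element of HNF4 and RXR, 2 exact copies in tandem 1 base apart, was in 0.0396%. None of these was in a window of the 7 genes. Forms with a mismatch were not searched, and exact IR1 and DR1 matched only 3 and 13 of all windows, so their absence here says little. A match or its absence in such a window is a description of the letters and not of binding.

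Cyp7b1, the oxysterol hydroxylase, is known to be higher in male than in female mouse liver. Its values were 12.53, 12.73 and 12.88 in ND and 12.34, 11.69 and 12.20 in HF. Every HF mouse was below every ND mouse, and HF replicate 2 was the lowest of all 15 arrays. Cyp7b1 fell by 0.64 on the log2 scale (SE 0.17), or 1.56-fold, with a 95% interval from -1.01 to -0.27 (limma adjusted p = 0.0260). The fall was not called without ND replicate 2 (adjusted p = 0.0606), ND replicate 3 (adjusted p = 0.0858), HF replicate 2 (adjusted p = 0.124) or HF replicate 3 (adjusted p = 0.0516), and its size without HF replicate 2 was -0.45. The next brightest probe set of Cyp7b1 differed by -0.42 ± 0.18 between HF and ND, which was not called over all probe sets (limma adjusted p = 0.149).

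With decaffeinated coffee 1 of the 10 genes was called against HF, where 5.02% of all genes were called, and that gene was Cyp7b1. Its values in HFDC were 12.97, 12.81 and 13.03, all above the highest HF value of 12.34. The rise was 0.86 ± 0.17 (SE), or 1.82-fold, with a 95% interval of 0.49 to 1.24 (limma adjusted p = 0.0249). HFDC and ND overlapped and differed by 0.22 ± 0.17 (limma adjusted p = 0.607). The next brightest probe set of Cyp7b1 rose by 0.74 ± 0.18 in HFDC against HF (limma adjusted p = 0.0439 over all probe sets). A dim probe set of Cyp7b1 stayed between 3.02 and 3.66 on all 15 arrays. On the brightest probe set the rise over HF was 0.67 (limma adjusted p = 0.118) without HF replicate 2 and 0.92 (adjusted p = 0.0880) without HF replicate 3. Leaving out HFDC replicate 1, 2 or 3 gave adjusted p of 0.0522, 0.0520 and 0.0939 by limma.

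With caffeinated coffee none of the 10 genes was called against HF by limma, where 1.64% of all genes were called, and none had an unadjusted p under 0.05. With green coffee none was called either, against 3.09% of all genes, and 3 had an unadjusted p under 0.05. For Cyp7b1 the HFGC values were 12.56, 12.77 and 12.40, all above the HF values, and the difference of 0.50 ± 0.17 had an adjusted p of 0.115 by limma. It was called without HF replicate 1, where it was 0.64 (adjusted p = 0.0442). The HFCC values of Cyp7b1, 12.38, 11.95 and 12.61, overlapped with HF, with a difference of 0.24 ± 0.17 and a 95% interval of -0.14 to 0.61 (limma adjusted p = 0.533).

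With the 3 coffee groups together, 1 of the 10 genes was called against HF, again Cyp7b1, where 10.3% of all genes were called. Cyp7b1 rose by 0.53 ± 0.14 (SE), or 1.45-fold, with a 95% interval of 0.23 to 0.84 (limma adjusted p = 0.0296). The call was lost without HF replicate 2, where the rise was 0.34 (adjusted p = 0.236), and without HF replicate 3, where it was 0.59 (adjusted p = 0.0868). The same HF mice enter each of these comparisons and that of HF with ND, so the fall on the high-fat diet and the rises with coffee share their HF arrays. The medians over the 10 genes were 0.10 for HFCC, -0.12 for HFDC, 0.04 for HFGC and 0.01 for the groups together, against -0.01, 0.01, 0.01 and 0.01 over all genes.

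**Figure D2:**
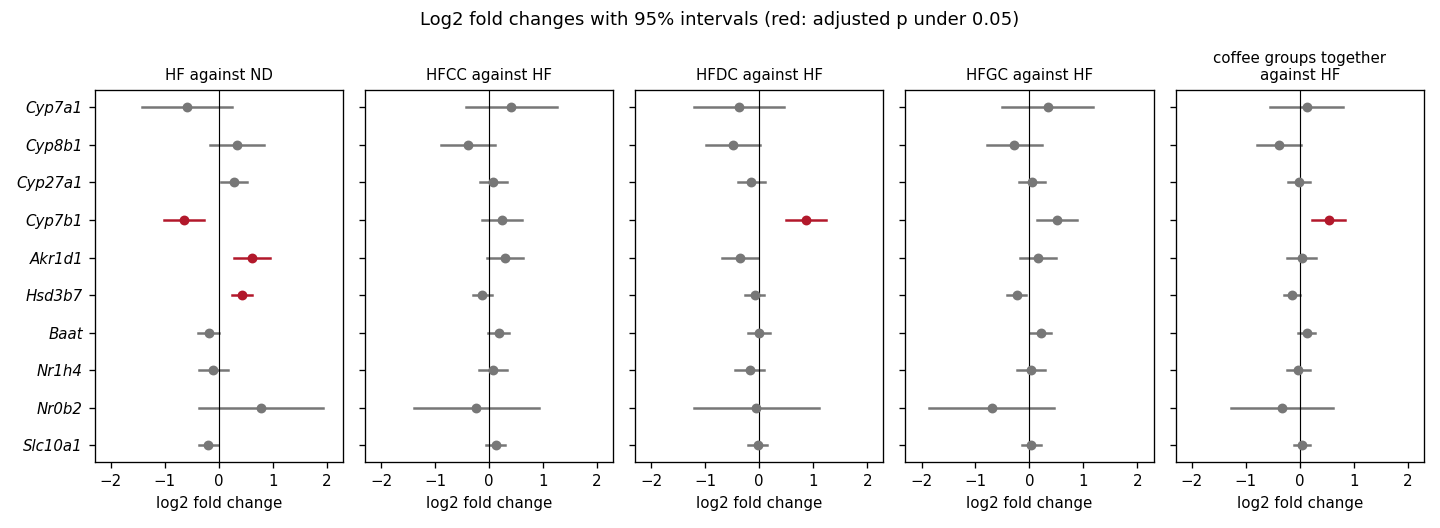
Log2 fold change of each of the 10 bile acid genes (points) with its 95% interval (lines, from limma, not adjusted for the number of genes), in HF against ND and in the coffee groups against HF; red marks an adjusted p under 0.05. Red points are Cyp7b1, Akr1d1 and Hsd3b7 in HF against ND and Cyp7b1 in HFDC and in the coffee groups together, and the widest intervals are those of Nr0b2 and Cyp7a1.

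When the 3′ to 5′ difference of the control probe sets was added as a covariate, none of the 10 genes was called by limma in HF against ND or in any comparison of a coffee group with HF. An unadjusted p under 0.05 was left for 2 in HF against ND, 2 in HFDC and 0 in HFCC, HFGC and the groups together. The share of all genes with such a p under the covariate is not given here. Over all genes the calls went from 2465 to 14 in HF against ND and from 1868 to 0 in the coffee groups together against HF. The sizes moved less, to -0.51 for Cyp7b1 (adjusted p = 0.370), 0.80 for Akr1d1 (adjusted p = 0.143) and 0.40 for Hsd3b7 (adjusted p = 0.166) in HF against ND, and to 0.76 for Cyp7b1 in HFDC against HF (adjusted p = 0.314). Since the 3 HF arrays hold the highest values of that measure, RNA quality and the high-fat diet without coffee cannot be told apart here.

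Akr1d1 was no nearer to its ND level in mice fed caffeinated or green coffee than in HF. Its values were 11.20, 11.23 and 10.85 in HFCC, 10.83, 10.86 and 11.17 in HFGC, and 10.27, 10.65 and 10.41 in HFDC. All HFCC and HFGC mice were above all ND and all HFDC mice, whereas HFDC overlapped with ND. Against ND, 1 of the 10 genes was called in HFCC, where 2.78% of all genes were called, and 1 in HFGC, where 1.45% were called, and in both it was Akr1d1. The rise was 0.91 ± 0.16 (SE), or 1.88-fold, in HFCC, with a 95% interval of 0.58 to 1.25 (limma adjusted p = 0.00692), and it was called without each array in turn. In HFGC it was 0.77 ± 0.16, or 1.71-fold, with a 95% interval of 0.44 to 1.10 (limma adjusted p = 0.0264). That call was lost without ND replicate 1 (0.59, adjusted p = 0.0792) and without HFGC replicate 1, 2 or 3 (adjusted p = 0.0591, 0.0713 and 0.0718).

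None of the 10 genes was called by limma in HFDC against ND, where 0.533% of all genes were called, and 4 of the 10 had an unadjusted p under 0.05. For Akr1d1 that difference was 0.27 ± 0.16 (limma adjusted p = 0.477). For Hsd3b7 all 3 HFDC mice were above all ND mice, by 0.34 ± 0.08 on average (limma adjusted p = 0.0749), and the same held in HFCC, with 0.31 ± 0.08 (limma adjusted p = 0.0627). Hsd3b7 in HFCC was called without HFDC replicate 2, which is in neither group but enters the shared spread (adjusted p = 0.0475).

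The coffee preparations were compared pairwise at the same 2% and the same time, and limma called none of the 10 genes in any of the 3 pairs. In HFDC against HFCC 0.0934% of all genes were called and 2 of the 10 had an unadjusted p under 0.05, in HFGC against HFCC 0% were called and 0 of the 10 had such a p (464 of all genes did), and in HFGC against HFDC 0.0385% were called and 2 of the 10 had such a p. HFDC and HFCC are labelled as decaffeinated and caffeinated coffee, and the paper lists unlike contents of trigonelline and chlorogenic acid for them as well. Between them Akr1d1 differed by -0.65 ± 0.16 with a 95% interval of -0.98 to -0.32 (limma adjusted p = 0.155), and the 3 HFDC mice were below the 3 HFCC mice. Cyp7b1 differed by 0.63 ± 0.17 with a 95% interval of 0.26 to 1.00 (limma adjusted p = 0.275), and the HFDC mice were above the HFCC mice. In HFGC, labelled as unroasted, against HFCC the differences were -0.14 (95% interval -0.47 to 0.19) for Akr1d1 and 0.27 (95% interval -0.10 to 0.64) for Cyp7b1, and both overlapped. The intervals of HFGC against HFCC leave room for differences in either direction, and those of HFDC against HFCC, which are not adjusted for the number of genes, do not include 0.

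The other probe set of Akr1d1 gave the same order at the top but not in HF. Its values were 8.61, 9.39 and 9.02 in ND, 9.63, 8.83 and 9.45 in HF, 10.05, 10.39 and 10.15 in HFCC, 8.93, 9.61 and 9.45 in HFDC and 9.60, 9.89 and 10.42 in HFGC. HF and HFDC overlapped with ND on this probe set, and HFCC lay above all 3. The rise in HFCC against ND was 1.19 ± 0.25 (limma adjusted p = 0.0245 over all probe sets), while HF against ND differed by 0.30 ± 0.25 (adjusted p = 0.483). With the mean of both probe sets, Akr1d1 was not called in HF against ND (0.46 ± 0.19, limma adjusted p = 0.143), and Cyp7b1 with the mean of its 3 probe sets was not called either (-0.40 ± 0.13, adjusted p = 0.0706).

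Slc10a1, the sodium-dependent carrier that takes bile acids up from the portal blood, had 13.21, 13.21 and 13.19 in ND on its brightest probe set and 13.09, 12.91 and 13.02 in HF. The HF mice were all below the ND mice, and the difference of -0.20 ± 0.08 was not called (limma adjusted p = 0.129). On its other probe set the values were 12.57, 12.57 and 12.50 in ND, 12.41, 11.95 and 12.14 in HF and 12.50, 12.56 and 12.56 in HFCC. There the HF level fell by 0.38 on the log2 scale (SE 0.11, limma adjusted p = 0.0391 over all probe sets), and HFCC was above HF by 0.37 ± 0.11 without a call (adjusted p = 0.104). The HFDC and HFGC values of that probe set ran from 12.22 to 12.65.

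**Figure D3:**
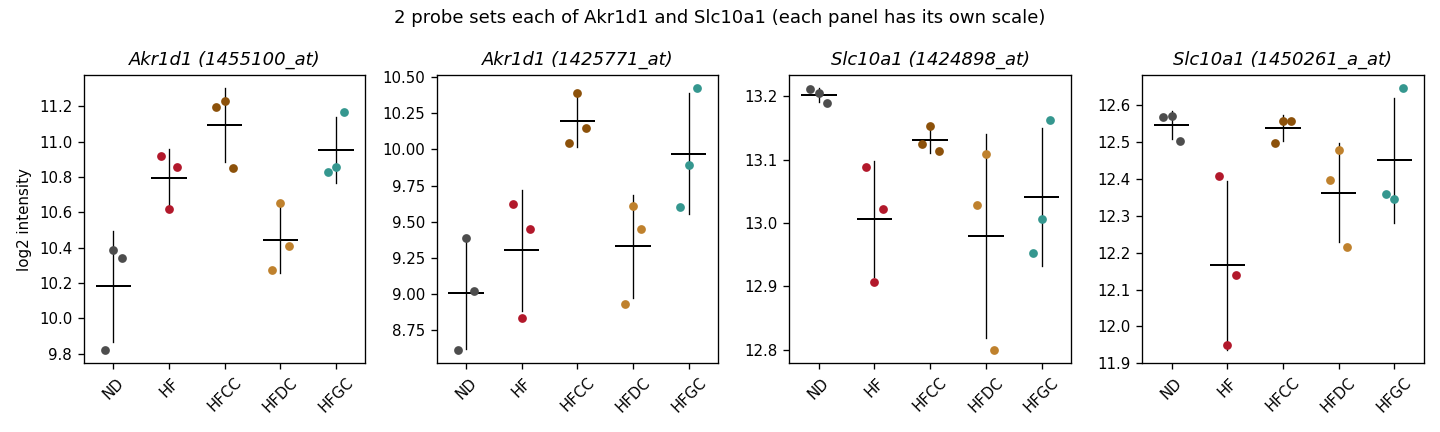
Log2 intensity (vertical axes, each panel on its own scale) of both probe sets of Akr1d1 and both of Slc10a1 in the 5 diet groups; points are single mice, horizontal lines group means and vertical lines 1 SD, n = 3. The HFCC mice are the highest group on both Akr1d1 probe sets, and the HF mice are below the ND mice on both Slc10a1 probe sets.

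Cyp7a1, which starts the classic route, had values of 11.97, 12.04 and 11.65 in ND, 11.73, 10.57 and 11.59 in HF, 11.87, 11.36 and 11.91 in HFCC, 12.03, 10.17 and 10.57 in HFDC and 11.92, 11.87 and 11.10 in HFGC. Single mice of HF and HFDC were far below the rest of their group or far above it, and no group lay wholly above or below the HF group. The SD was 0.20 in ND, 0.63 in HF, 0.31 in HFCC, 0.98 in HFDC and 0.46 in HFGC. The group means ran from ND through HFCC, HFGC and HF to HFDC, and none of the 10 pairs of groups was called, the widest being HFDC against ND at -0.96 ± 0.39 (limma adjusted p = 0.281). The lowest mice were HFDC replicates 2 and 3 and HF replicate 2. On the other probe set of Cyp7a1 the same 3 mice were lowest, HF replicate 2 at 7.95 and HFDC replicates 2 and 3 at 8.22 and 8.47, but the order of the group means differed, with HFCC highest at 9.87 and HF lowest at 8.88.

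Cyp8b1, which sets the share of cholic acid, was 12.42, 11.92 and 11.76 in ND, 12.27, 12.54 and 12.31 in HF, 12.29, 11.64 and 12.02 in HFCC, 12.43, 11.83 and 11.39 in HFDC and 12.09, 11.82 and 12.38 in HFGC. The HF mice were the most alike, with an SD of 0.14, and all groups overlapped. HF had the highest mean and HFDC the lowest, a difference of -0.49 ± 0.24 with a 95% interval of -0.99 to 0.01 (limma adjusted p = 0.235). Against HF the means were lower by 0.39 in HFCC and by 0.28 in HFGC, and none was called.

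SHP, the product of Nr0b2, is a receptor without a DNA-binding domain. Nr0b2 was 6.77, 9.39 and 9.28 in ND, 9.02, 9.40 and 9.36 in HF, 8.83, 9.12 and 9.13 in HFCC, 9.21, 8.88 and 9.53 in HFDC and 7.86, 9.61 and 8.20 in HFGC. ND replicate 1 and HFGC replicates 1 and 3 lay well below the other 12 mice, which sat between 8.83 and 9.61. From the lowest to the highest mouse the intensity of Nr0b2 differed 7.15-fold, and its pooled SD within groups, 0.80, was above that of 99.8% of the 9097 genes at or above the median level. HF differed from ND by 0.78 ± 0.54 (limma adjusted p = 0.366) and HFGC from HF by -0.70 ± 0.54 (adjusted p = 0.511), with 95% intervals of -0.37 to 1.93 and -1.85 to 0.45.

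The spread between mice fed alike set the genes of this pathway apart from each other. The pooled SD was above that of 99.4% of such genes for Cyp7a1 (0.58), 97.4% for Cyp8b1 (0.34), 93.2% for Cyp7b1 (0.25) and 90.1% for Akr1d1 (0.22). It was nearer the middle for Nr1h4 (0.17, 78.9%), Cyp27a1 (0.15, 74.8%) and Baat (0.12, 52.4%), and below it for Hsd3b7 (36.1%) and Slc10a1 (35.5%), at 0.10 each. The lowest and the highest mouse differed 3.64-fold for Cyp7a1, 2.66-fold for Akr1d1, 2.54-fold for Cyp7b1 and 2.22-fold for Cyp8b1.

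FXR itself, Nr1h4, lay between 10.08 and 10.78 in all 15 mice, with group means from 10.68 in ND to 10.40 in HFDC. No pair of groups was called, and HF differed from ND by -0.10 with a 95% interval of -0.36 to 0.16 (limma adjusted p = 0.640). Cyp27a1, the mitochondrial hydroxylase of the sterol side chain, was 11.65, 11.43 and 11.80 in ND and 11.93, 11.82 and 11.97 in HF. The HF mice were all above the ND mice, by 0.28 ± 0.12, which was not called (limma adjusted p = 0.122), and HFCC exceeded ND by 0.36 ± 0.12 (adjusted p = 0.118). The other probe set of Cyp27a1 was dim, between 2.67 and 2.99.

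Baat, which joins bile acids to taurine, was 11.00, 10.80 and 10.86 in ND and 10.79, 10.64 and 10.66 in HF. The HF mice were all below the ND mice, and the difference of -0.19 ± 0.09 was not called (limma adjusted p = 0.202). HFDC, with 10.69, 10.73 and 10.66, had nearly the mean of HF (a difference of 0.00, 95% interval -0.20 to 0.20). In the order of group means, no neighbouring groups differed by limma for any of the 10 genes, and of the 10 pairs of groups 3 were called for Akr1d1, 2 for Cyp7b1, 1 for Hsd3b7 and 0 for the other 7 genes.

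Because SHP represses Cyp7a1, the values of Nr0b2 were set against those of the other 9 genes, and Cyp7a1 against Cyp8b1, between mice within groups, after the mean of each group was removed. These 10 relations were tested two-sided over all 7776 orders within the groups, an exact permutation test. Nr0b2 and Cyp7a1 had a Pearson r of -0.01 (exact permutation p = 0.975, adjusted 0.975) and a Spearman rho of -0.03 (p = 0.931, adjusted 0.947), n = 15, and r was 0.23 without the 2 mice farthest from the median of Nr0b2 (exact permutation p = 0.530). Nr0b2 and Cyp8b1 had an r of -0.56 (exact permutation p = 0.0485, adjusted 0.242) and a rho of -0.60 (p = 0.0453, adjusted 0.226), and r was -0.50 without the 2 farthest mice (exact permutation p = 0.321). Neither of these relations passed the adjustment.

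Nr0b2 and Baat had an r of -0.65 (exact permutation p = 0.0428, adjusted 0.242) and a rho of -0.81 (p = 0.00206, adjusted 0.0206), n = 15. The rank correlation passed the adjustment over the 10 relations and the linear one did not. Without the 2 mice farthest from the median of Nr0b2, r was -0.85 (exact permutation p = 0.0556). Over all 15 mice, with the 3′ to 5′ difference removed, it was -0.64. In the mice with low Nr0b2, ND replicate 1 and HFGC replicates 1 and 3, Baat was 11.00, 10.89 and 11.10, and in HFGC replicate 2, with the highest Nr0b2, it was 10.72. The other probe set of Baat had 9.84, 9.72 and 10.02 in the mice with low Nr0b2, and 9.72 in HFGC replicate 2. On that probe set HFGC replicates 1 and 2 thus did not differ. The relations above were computed on the brightest probe sets. Cyp7a1 and Cyp8b1 had an r of 0.34 (exact permutation p = 0.503, adjusted 0.718) and a rho of 0.15 (p = 0.695, adjusted 0.947), and without the 2 farthest mice r was -0.15 (exact permutation p = 0.611).

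Among genes at or above the median level, those whose log2 intensity followed a member most closely over the 15 arrays were named by Pearson r, as a description that includes both the differences between groups and those between mice. For Cyp7b1 they were Slco1a1 (0.93), an organic anion and bile acid carrier, and the complement genes C8b (0.91) and C6 (0.88), and the most opposite was Slc16a7 (-0.91), a monocarboxylate carrier. Slco1a1 was 11.62, 11.97 and 11.84 in ND, 11.47, 10.71 and 11.07 in HF and 12.17, 11.92 and 11.70 in HFDC, so that HF replicate 2 was again the lowest mouse. For Cyp7a1 they were Trmt1l (0.84), Ing3 (0.84) and G3bp1 (0.83), with Csrnp1 most opposite (-0.91). For Cyp8b1 they were Rab34 (0.93), Inca1 (0.85) and Dtymk (0.84), with Kdelr2 most opposite (-0.82). For Nr0b2 they were Slc2a1 (0.84), Slc26a11 (0.83) and Zmynd8 (0.83), with Pspc1 most opposite (-0.85).

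**Figure D4:**
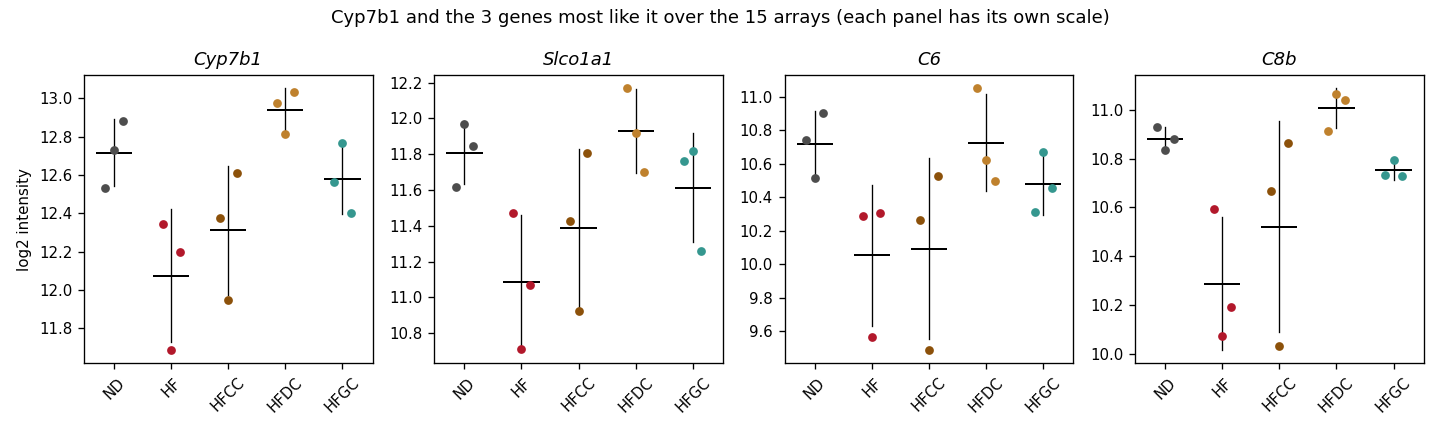
Log2 intensity (vertical axes, each panel on its own scale) of Cyp7b1 and of Slco1a1, C6 and C8b, the 3 genes with the highest Pearson r with it over the 15 arrays; points are single mice, horizontal lines group means and vertical lines 1 SD, n = 3. HF has the lowest group mean of all 4 genes and HFDC the highest.

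Since Cyp7b1 and Slco1a1 are male-biased in mouse liver, the male-biased genes listed with them were counted. Slco1a1 and C6 of that list were already named above for their high r with Cyp7b1 on these same arrays. Their directions, and the medians that hold them, are thus not independent of Cyp7b1. Of 8 listed, 6 were measured, and in HF against ND, where 13.5% of all genes were called, 1 was called, Slco1a1, which fell by 0.73 (SE 0.22, limma adjusted p = 0.0424). Cyp4a12a differed by -1.16 ± 0.38 (adjusted p = 0.0565) and C6 by -0.67 ± 0.24 (adjusted p = 0.0802), and the median of the 6 was -0.48. The differences of Hsd3b5 (0.17 ± 0.39) and Cyp2d9 (0.09 ± 0.08) were above 0 and not called. In HFDC against HF, where 5.02% of all genes were called, all 6 differences were above 0, with a median of 0.71. There 1 was called, Slco1a1 at 0.85 ± 0.22 (limma adjusted p = 0.0429), which was also lost under 8 of 9 other alternatives. In HFGC against HF all 6 were above 0 too, with a median of 0.43, and in HFCC against HF 3 were above and 3 below, with a median of 0.01. In HFDC against HF, Cyp4a12a differed by 0.77 ± 0.38, Hsd3b5 by 0.74 ± 0.39 and C6 by 0.67 ± 0.24, none of them called. The call of Slco1a1 in HF against ND was lost without 8 of the 15 arrays, one at a time, and so was that in HFDC against HF, in both cases among them HF replicates 2 and 3.

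Of 14 other enzymes of bile acid synthesis, which take in oxysterol hydroxylases, side chain shortening, conjugation and muricholic acid formation, 2 rose and 1 fell in HF against ND, where 13.5% of all genes were called. Ehhadh, a peroxisomal enzyme of beta-oxidation, fell by 1.14 on the log2 scale (SE 0.20, limma adjusted p = 0.00407). Slc27a5, the bile acid CoA ligase that acts just before Baat, rose by 0.32 ± 0.06 (adjusted p = 0.00678), and Akr1c6 rose by 0.32 ± 0.08 (adjusted p = 0.0142). Ehhadh was 13.90, 13.54 and 13.37 in ND, 12.87, 12.26 and 12.25 in HF, 12.07, 12.56 and 12.26 in HFCC, 13.51, 13.05 and 13.21 in HFDC and 12.81, 12.80 and 12.22 in HFGC. HF was below ND without overlap, and HFDC was above HF without overlap, by 0.79 ± 0.20 (limma adjusted p = 0.0396). No other of these 14 genes was called for a single coffee group against HF, and with the coffee groups together Cyp2c70, which forms muricholic acids, rose by 0.46 ± 0.13 (adjusted p = 0.0332). Neither the call of Ehhadh in HFDC nor that of Cyp2c70 held without HF replicate 2 or without HF replicate 3.

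Of 14 transporters of bile acids and bile lipids besides Slc10a1, 3 rose and 2 fell in HF against ND, against 13.5% of all genes called. The basolateral exporter Abcc3 was 9.47, 9.88 and 8.95 in ND and 10.70, 11.02 and 10.78 in HF. Its rise was 1.40 ± 0.17 (SE), or 2.64-fold (limma adjusted p = 0.000549). Abcc3 kept clear of ND in all coffee groups, from 10.30 to 10.70 in HFCC, HFDC and HFGC, and was called against ND in each of them, in HFDC not without ND replicate 1 or HFDC replicate 2. The canalicular exporters Abcc2 and Abcb11, the latter the bile salt export pump and a target of FXR, rose by 0.52 ± 0.12 (adjusted p = 0.0104) and 0.41 ± 0.12 (adjusted p = 0.0382), Abcb11 being named after its value was seen. Slco1a1 and the canalicular flippase Atp8b1 (-0.58 ± 0.14, adjusted p = 0.0140) fell. Without HF replicate 2, Abcc2 and Abcc3 alone of these 14 were called in HF against ND. In HFDC against HF, where 5.02% of all genes were called, Slco1a1 was the 1 gene called of the 14, and in HFCC, in HFGC and with the coffee groups together limma called none, with 2, 4 and 6 at an unadjusted p under 0.05.

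Of 17 regulators of bile acid synthesis besides FXR and SHP, 13 were measured, and 4 rose and none fell in HF against ND, where 13.5% of all genes were called. Ppara, the receptor for fatty acids, was 9.91, 10.33 and 10.03 in ND and 10.78, 11.27 and 10.98 in HF. Its rise was 0.92 ± 0.13 (SE), or 1.89-fold (limma adjusted p = 0.00157). LRH-1, the product of Nr5a2, activates Cyp7a1 and Cyp8b1, and Nr5a2 rose by 0.47 ± 0.09 (adjusted p = 0.00582). The xenobiotic receptors CAR (Nr1i3) and PXR (Nr1i2) rose by 0.57 ± 0.13 (adjusted p = 0.0126) and 0.39 ± 0.09 (adjusted p = 0.0126). Neither of these 2 was called without HF replicate 2, where the adjusted p was 0.0598 for Nr1i3 and 0.0610 for Nr1i2. The median over the 13 was 0.27.

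Every regulator called against HF in a coffee group was lower than in HF. Ppara fell by 0.64 in HFCC (limma adjusted p = 0.0365), by 0.54 in HFDC (adjusted p = 0.0368) and by 0.79 in HFGC (adjusted p = 0.0161). Nr5a2 fell by 0.42 in HFCC (adjusted p = 0.0383) and by 0.44 in HFGC (adjusted p = 0.0265), and Nr1i3 fell by 0.70 in HFDC (adjusted p = 0.0219). With the groups together, all 13 differences were below 0 and 4 genes were called, against 10.3% of all genes, the fourth being Rxra, a partner of several nuclear receptors, CAR and the product of Ppara among them, which fell by 0.26 (adjusted p = 0.0204). Without HF replicate 2, and without HF replicate 3, none of the 13 was called in any coffee group or in the groups together. With the 3′ to 5′ difference as a covariate, none of the 13 regulators, the 14 other enzymes or the 14 transporters was called in HF against ND or in a coffee comparison with HF.

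**Figure D5:**
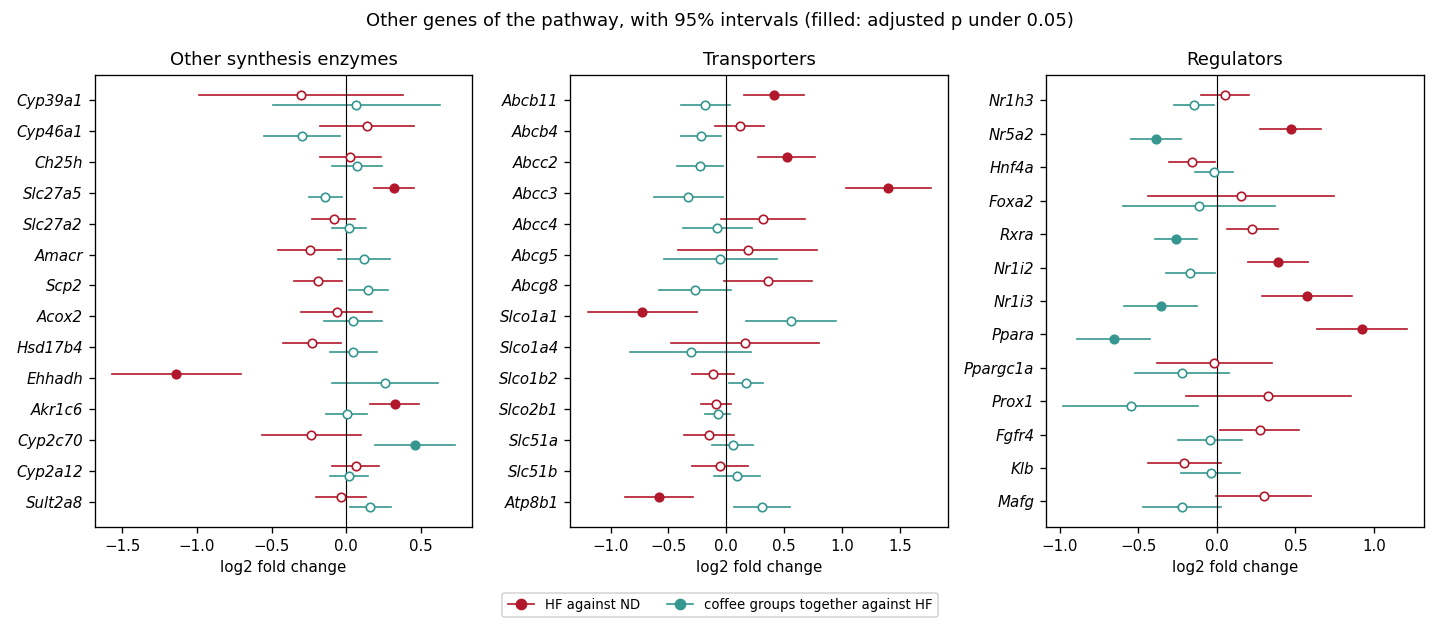
Log2 fold changes (horizontal axes) with 95% intervals from limma, not adjusted for the number of genes, for 14 other synthesis enzymes, 14 transporters and 13 regulators of bile acid synthesis, in HF against ND (red) and in the coffee groups together against HF (green); filled points have an adjusted p under 0.05. Ppara, Nr5a2 and Nr1i3 are filled on the right in HF against ND and on the left with coffee, and Abcc3 and Ehhadh hold the widest changes of HF against ND.

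Some markers of other liver cells were called. The share of all genes called was 13.5% in HF against ND and 10.3% in the coffee groups together against HF. With the 3′ to 5′ difference as a covariate 14 and 0 of all genes were called in these comparisons, so no marker was called with the coffee groups together. Of the sinusoidal endothelial markers (6 of 6 measured), Stab2 rose by 0.49 in HF against ND (limma adjusted p = 0.00304) and, with all coffee mice set against HF, fell by 0.36 (adjusted p = 0.00916). The other 5 were not called in either comparison: Lyve1 (-0.58), Pecam1 (-0.09) and Oit3 (-0.12) were lower in HF than in ND, and with coffee 4 of the 6 were above 0, with a median of 0.15. The summed intensity of the 6 was 1929 to 2804 in ND, 2361 to 2560 in HF, 2199 to 2555 in HFCC, 2525 to 2588 in HFDC and 2471 to 2592 in HFGC. Of the stellate cell markers (6 of 6 measured), Pdgfrb rose by 0.75 (limma adjusted p = 0.00320) and Reln by 0.52 (adjusted p = 0.0156) in HF against ND. Lrat, Dcn, Des and Hgf were not called there, and all 6 differences were above 0. The summed intensity of the 6 was 2988 to 3421 in ND, 3244 to 4267 in HF, 3938 to 4074 in HFCC, 3206 to 4193 in HFDC and 3289 to 4003 in HFGC. Of 8 Kupffer cell markers limma called none in any comparison, with 0 to 1 at an unadjusted p under 0.05, and their summed intensity was 4537 to 7060 in ND and 6825 to 7446 in HF. No intensity on these arrays was at 0. The part of these cell types in the differences of the bile acid genes was not tested.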

How the data were processed

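The deposited values were linear intensities, which the authors made from the scanned arrays by RMA (background correction, quantile normalization and median polish over probes). For RMA no software or version is given in the sources used here. The log2 of each deposited intensity was taken, 64 control probe sets were left out, and probe sets were named through the platform annotation: 34945 of 45037 had 1 symbol, 932 several (not used) and the others none. Each gene was represented by its brightest probe set. limma 3.58.1 in R 4.3.3 fitted 5 group means over all 15 arrays (10 residual degrees of freedom), with eBayes and Benjamini-Hochberg adjustment over 18193 genes, for 11 comparisons. No count of reads exists for arrays, and their number limits the precision. Median intensities of the arrays were 48.5 to 50.0, no pair of arrays was identical, and 0 columns lacked a sample. The method was tested on simulated data.

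The members and gene lists were chosen with earlier results of these data known. Named were all 10 members, up to 4 called and 3 uncalled genes of each list by size of change, and, for 4 members, the 3 genes most like and the 1 most unlike them. Alternatives were the mean of a gene's probe sets, all probe sets, cyclic loess, only genes no dimmer than the median, 32 added to each intensity, a fit to the compared groups alone, a block for the replicate number, eBayes with trend and robust, RNA quality as a covariate, at least 1.5-fold, and leaving out each array. No batch was given in the labels. Each array is a separate mouse, so p-values measure the spread between mice. Of the male-biased list Mup1 and Serpina1e were not tested here, nor were 4 of the 17 regulators. The promoter windows of Cyp7a1, Cyp7b1 and Baat were not used here.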

Additional observations from a re-analysis of the deposited data

Results flagged for a closer look

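Per1, a clock gene, differed between coffee preparations on the same high-fat diet. In HFGC against HFDC the difference was 0.90 on the log2 scale (limma adjusted p = 0.0378), from values of 8.17, 8.23 and 7.86 in HFGC and of 7.28, 6.96 and 7.32 in HFDC, without overlap. The call was lost without ND replicate 2 or 3, HF replicate 3, HFDC replicate 2 or 3, or HFGC replicate 1 or 2, taken one at a time, and the adjusted p over all such fits ran from 0.0178 to 0.166. It was also lost with all probe sets, with 32 added to each intensity, with the compared groups alone and with the replicate number as a block.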

How the results depend on the processing

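Of the 10 bile acid genes, the number called in HF against ND was 1 with the mean of a gene's probe sets, 1 with the compared groups alone, 0 with RNA quality as a covariate and 1 to 3 when arrays were left out one at a time. Over all 18193 genes the calls in HF against ND were 2052, 481, 14 and 989 to 3132, in the same order of settings. In HFDC against HF the number called of the 10 was 0 with the compared groups alone, 0 with the covariate and 0 to 1 without single arrays. In HFGC against HF it was 0 to 1 without single arrays. Over all genes the calls were 5, 0 and 3 to 2111 in HFDC against HF, and 2 to 1860 in HFGC against HF. For the coffee groups together against HF the number called of the 10 was 0 with the mean of probe sets and 0 with the covariate. It was 0 where 1.5-fold was also required and 0 to 1 without single arrays. Over all genes the calls there were 1351 with the mean of probe sets, 0 with the covariate and 4 to 2738 without single arrays. In HFCC against ND the number called of the 10 was 2 with genes at or above the median level alone and 2 with trend and robust eBayes. It was 0 there with the compared groups alone and 1 to 2 without single arrays. In HFGC against ND it was 0 with the compared groups alone and 0 to 1 without single arrays. In HFCC against HF, HFDC against ND and the 3 coffee pairs it was 0 without any single array. Over all genes, 2 to 1730 were called in HFCC against HF without single arrays. No counts over all genes under these settings are given here for coffee groups against ND or against each other. The cause of these changes was not tested, except that the fits without an array hold fewer samples.

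The replicate numbers showed no clear pairing of the mice. The deviations of same-numbered arrays correlated from -0.276 to 0.227, with a median of 0.057 against -0.031 for other pairs. Of the 15 arrays, 7 correlated best with their own number. With the replicate number as a block, 2 members were called in HFCC against ND and 1 in HFDC against ND. The calls over all genes with this block are not given here for these 2 comparisons, so nothing was read from these counts of members. Over all genes, 1868 were called for the 3 coffee groups as 1 against HF, but 4 without HF replicate 2 and 64 without HF replicate 3. The correlation of Nr0b2 against Cyp7a1 between mice within groups, near 0, was 0.23 without the 2 farthest mice and from -0.103 to 0.0643 without single arrays. No call of a named gene changed direction under an alternative. With 3 mice a group an exact permutation test of a single gene cannot go below 0.10, and intensities near the background give no order.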

Other observations

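Slc10a2, the sodium-dependent bile acid carrier of ileum and bile ducts, was dim in all groups, with mean log2 intensities of 3.25 in ND, 3.38 in HF, 3.92 in HFCC, 3.53 in HFDC and 3.79 in HFGC. It was called higher by limma in HFCC and in the coffee groups together against HF, and in HFCC and HFGC against ND. At this level no order of the groups was read from these calls. Fgf15, the intestinal hormone that lowers Cyp7a1, was dim as well, with group means from 4.89 to 5.08, and was not called. Of 14 clock genes 1 was called in HF against ND, where 13.5% of all genes were called. It was Per2, which fell by 0.89 (limma adjusted p = 0.00472). That fall was called without each array in turn but not with RNA quality as a covariate. In HFGC against HF, where 3.09% of all genes were called, Per2 alone of the 14 was called, with a rise of 0.82 (limma adjusted p = 0.0265). The call was lost without HF replicate 2 or 3 or HFGC replicate 2 or 3 (adjusted p up to 0.134). It was also lost with the mean of the probe sets of Per2, with the compared groups alone and with the covariate. With the coffee groups together against HF, where 10.3% of all genes were called, Per2 was called higher, but not without 9 of the 15 arrays, one at a time. Per2 was called lower in HFDC against ND, where 0.533% of all genes were called, but not without 11 of the 15 arrays.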
